A study of Mus musculus with 24 samples.

Results

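Of the 55487 genes measured in mouse oocytes and early embryos, wild-type or knockout for Nlrp14, 9 were picked by symbol because their transcripts were lower in the knockout at 3 stages. The 4 zinc finger genes Zfp992, Zfp994, Zfp820 and Zfp345, the nucleosome-binding protein gene Hmgn5, Fam84b, the lipid droplet gene Hilpda, the protein-coding gene C130073F10Rik and the long noncoding RNA gene Gm30564 made up the set. The choice rested on the knockout against wild-type difference in MII oocytes, PN5 zygotes and 2-cell embryos, so the values at those stages are given as a description with no test. The rule does not name the difference in GV oocytes, which was tested. In the fit used here 23 genes were lower at the 3 stages, and why these 9 were picked is not given. It is therefore not shown that the GV values had no part in the choice. All 9 symbols matched 1 gene model each, and all 9 passed the filter on low values at each stage.

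NLRP14 is a protein of the NLR family that is made in oocytes and needed for female fertility. Each library was made from total RNA of a pool of 5 oocytes or embryos, and the 8 groups, 2 genotypes at 4 stages, had 3 libraries each, which the labels call biological replicates. The stages were fully grown oocytes in prophase arrest (germinal vesicle, GV), ovulated oocytes arrested in the second meiotic metaphase (MII), late pronuclear zygotes (PN5) and embryos after the first division (2-cell). The knockout libraries carry the genotype Nlrp14 knockout at all 4 stages and HO in their titles, and the wild-type libraries WT. Strain, age of the females, sire of the zygotes and embryos, the deleted part of Nlrp14 and any littermate relation between the genotypes are not given in the sources used here. The part of strain background in the differences below was not tested. Libraries labelled as replicates were not tied to single animals, so p-values measure the spread between these pools.

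Zinc finger proteins of the C2H2 type bind DNA through repeated finger modules, and many mouse members also carry a KRAB domain, which recruits the corepressor TRIM28 and with it silencing enzymes. Their genes often lie in clusters of young duplicates, in which neighbours share sequence. HMGN proteins bind nucleosomes and oppose chromatin compaction by linker histone, and HMGN5 is the long-tailed member of the family. HILPDA sits on lipid droplets, inhibits the triglyceride lipase ATGL and is a known target of hypoxia-inducible factors. FAM84B, also named LRATD2, carries an LRAT-like domain. Oocytes at GV store transcripts that are translated or degraded during maturation, and the 2-cell stage is when the mouse embryo starts large-scale transcription of its own.

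Depth as implied by the deposited values was 7.65 to 12.3 M fragments per library. Knockout GV replicate 3 stood apart, with a summed FPKM of 456463 against 372963 to 384375 in the other GV libraries. So did wild-type PN5 replicate 1, with 462297 against 316791 to 369873 in the other PN5 libraries. Nlrp14, which checks the labels, averaged 1937 ± 70.6 FPKM in wild-type and 28.4 ± 9.41 FPKM in knockout GV oocytes (SD, n = 3), and at each stage the groups did not overlap. It was at 24.9% of wild type in knockout 2-cell embryos and at 1.46 to 5.02% at the earlier stages. Of 12 oocyte markers, 11 or 12 reached 1 FPKM in all libraries of each group. Their summed level in 2-cell embryos was 1196 to 1626 FPKM for wild-type and 4065 to 4991 FPKM for knockout libraries. Of the 12, 8 passed as higher there (66.7%, against 14% of all tested genes), led by H1foo (26.6 ± 2.87 to 301 ± 121 FPKM) and Oosp1. Of the others 1 passed as lower, Zp3 (67.1 ± 16.9 to 21.7 ± 4.59 FPKM), and 3 did not pass in limma. Of 13 granulosa and cumulus markers, 1 to 4 reached 1 FPKM in all libraries of a group, and Amh was listed at 0 in all libraries of 7 of the 8 groups. Their sum in 2-cell embryos was 28.0 to 42.4 FPKM among wild-type and 10.4 to 14.4 FPKM among knockout libraries. In wild-type 2-cell embryos it came mostly from Tnfaip6 (25.2 ± 8.76 FPKM) and Nr5a2 (8.77 ± 2.45 FPKM). Of the 13 markers, 6 were at 0 in all wild-type 2-cell libraries, Fshr, Inha and Amh among them. Tnfaip6 and Nr5a2 were lower there, Cyp19a1 was higher (0.759 ± 0.335 to 2.71 ± 0.803 FPKM) and Kitl did not pass in limma. The 8 markers of blood, stroma and oviduct summed in 2-cell embryos to 45.8 to 77.9 FPKM for wild-type and 13.6 to 21.6 FPKM for knockout libraries, mostly from Hba-a1. Hbb-bs, Pax8 and Ptprc of this list were at 0 in all wild-type 2-cell libraries. The part of other cell types in the 2-cell values of the 9 genes was not tested. FPKM is a share of a library's fragments. In pools of 5, fewer embryos with a transcript and less of it per embryo cannot be told apart.

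Promoter sequences from RefSeq (GRCm38.p6, the 250 bases before the transcript start) were at hand for 6 of the 9 genes, from 7 starts. The pair Zfp820 and Zfp994 is shown because both genes lie on chromosome 17, 380 kb apart, and their promoters were the most alike of the 6 genes. The capitals mark CACGTG, an E-box that reads the same on both strands.
Zfp820 (chr17:21845760-21846009, - strand): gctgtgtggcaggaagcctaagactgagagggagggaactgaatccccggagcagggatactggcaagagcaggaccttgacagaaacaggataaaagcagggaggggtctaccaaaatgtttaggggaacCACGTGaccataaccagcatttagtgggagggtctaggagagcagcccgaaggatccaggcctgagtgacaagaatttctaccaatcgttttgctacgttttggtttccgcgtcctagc
Zfp994 (chr17:22225615-22225864, - strand): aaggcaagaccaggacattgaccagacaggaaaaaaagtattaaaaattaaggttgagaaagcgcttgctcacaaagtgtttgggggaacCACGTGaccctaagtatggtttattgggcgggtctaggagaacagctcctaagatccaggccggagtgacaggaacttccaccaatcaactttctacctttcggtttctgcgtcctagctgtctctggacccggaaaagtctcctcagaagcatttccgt
In a global alignment both were identical at 53.6% of positions, against 41.8 to 48.4% for the other pairs of genes. Their longest shared run is ggggaacCACGTGacc, 16 bases, in which the E-box begins 119 bases before the start of Zfp820 and 160 bases before that of Zfp994. The other 4 genes with a promoter entry held no CACGTG in these windows. Of all 32851 promoters of this length in the table, 6.02% held CACGTG.

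The promoters of the 2 genes with the highest wild-type level in 2-cell embryos, Hmgn5 and C130073F10Rik, are shown for their contrast in CpG dinucleotides, which the capitals mark.
Hmgn5 (chrX:109013381-109013630, - strand): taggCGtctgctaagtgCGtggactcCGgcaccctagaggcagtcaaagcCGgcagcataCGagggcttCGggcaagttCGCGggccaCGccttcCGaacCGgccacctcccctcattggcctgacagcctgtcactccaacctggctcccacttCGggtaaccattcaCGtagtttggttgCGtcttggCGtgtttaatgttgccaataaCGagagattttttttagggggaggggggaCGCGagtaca
C130073F10Rik (chr4:101893790-101894039, - strand): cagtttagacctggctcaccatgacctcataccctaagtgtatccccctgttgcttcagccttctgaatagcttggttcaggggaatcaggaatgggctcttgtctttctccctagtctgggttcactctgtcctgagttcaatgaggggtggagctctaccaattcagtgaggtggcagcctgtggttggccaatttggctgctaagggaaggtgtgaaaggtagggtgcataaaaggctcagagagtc
Hmgn5 held 18 CpG dinucleotides and C130073F10Rik held 0, where the median promoter held 6 with quartiles of 2 and 16. The numbers were 3 for Zfp345, 7 for Zfp820, 8 for Zfp994 and 7 or 23 for the 2 starts of Hilpda. The sequence ACGTG, the core of the hypoxia response element, which CACGTG also contains, was searched on both strands. It occurred in Zfp820, Zfp994, Hmgn5 and the second start of Hilpda, and in 16.6% of all promoters. A match describes these letters and shows no binding.

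Zfp992 (ENSMUSG00000070605) lies at 146449023 to 146470292 on the + strand of chromosome 4. In GV oocytes it read 1.23, 1.20 and 1.35 FPKM among wild-type and 0.278, 0.498 and 0.619 FPKM among knockout libraries. At MII its range was 1.56 to 1.81 FPKM among wild-type and 0.333 to 0.559 FPKM among knockout libraries, and at PN5 it was 1.81 to 3.07 and 0.482 to 0.861 FPKM. In 2-cell embryos it read 6.02, 5.60 and 6.12 FPKM among wild-type and 1.43, 0.846 and 0.508 FPKM among knockout libraries. The groups did not overlap at any stage, and the knockout mean was 36.9, 26.5, 28.1 and 15.7% of wild type from GV to 2-cell. The wild-type level was higher at each later stage, with no overlap between successive stages, although MII and PN5 nearly touched, while the knockout level overlapped at each step. These values rest on 12 to 52 fragments per knockout library and 58 to 247 per wild-type library.

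Zfp994 (ENSMUSG00000096433) lies at 22197265 to 22225616 on the - strand of chromosome 17. Its wild-type level was nearly flat, with group means of 1.81, 1.88, 1.84 and 1.64 FPKM from GV to 2-cell and overlapping ranges at each step. The GV libraries read 1.72, 2.01 and 1.70 FPKM among wild-type and 0.497, 0.375 and 0.355 FPKM among knockout libraries. Ranges at MII were 1.65 to 2.10 FPKM against 0.252 to 0.604 FPKM, and at PN5 1.63 to 2.18 FPKM against 0.528 to 0.735 FPKM. It was the only one of the 9 genes with no separated step in either genotype. In 2-cell embryos the libraries read 1.23, 1.77 and 1.93 FPKM among wild-type and 0.617, 0.473 and 0.773 FPKM among knockout libraries. No knockout library reached 1 FPKM at any stage, and these values rest on 13 to 35 fragments each.

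Zfp820 (ENSMUSG00000069743), at 21816885 to 21845772 on the - strand of chromosome 17, was higher at later stages in both genotypes. In GV oocytes the wild-type libraries read 3.41, 1.49 and 2.96 FPKM and the knockout libraries 1.15, 1.23 and 1.21 FPKM. At MII they read 7.41, 5.13 and 4.85 FPKM against 1.79, 1.54 and 2.17 FPKM. PN5 zygotes gave 6.64, 9.96 and 8.29 FPKM among wild-type and 1.97, 1.503 and 2.81 FPKM among knockout libraries. The GV groups were separated by the narrow gap between wild-type replicate 2 and knockout replicate 2, and the MII and PN5 groups by more than the spread within either. In 2-cell embryos the values were 22.8, 19.6 and 25.5 FPKM against 5.48, 5.98 and 4.15 FPKM. As a share of wild type the knockout stood at 45.8, 31.6, 25.2 and 23.0% in stage order. The step from PN5 to 2-cell was 2.73-fold upwards in wild type and 2.49-fold in the knockout.

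Zfp345 (ENSMUSG00000074731), at 150470991 to 150485091 on the - strand of chromosome 2, had the highest mean of the 4 zinc finger genes at all stages in both genotypes, overlapping Zfp820 in wild-type 2-cell embryos. In GV oocytes it read 90.5, 73.5 and 93.2 FPKM among wild-type and 50.3, 42.5 and 51.1 FPKM among knockout libraries. At MII the ranges were 16.9 to 22.2 FPKM and 8.03 to 11.3 FPKM. The GV level was therefore 4.40-fold above the MII level in wild type and 5.03-fold in the knockout. PN5 zygotes read 47.0, 27.4 and 25.8 FPKM against 8.99, 14.98 and 7.01 FPKM. In 2-cell embryos the libraries read 31.2, 18.7 and 27.7 FPKM against 9.18, 10.9 and 13.1 FPKM. The groups did not overlap at any stage, with the knockout at 56.0, 49.0, 30.9 and 42.8% of wild type from GV to 2-cell. Wild-type PN5 replicate 1 lay well above the other 2, which widens the error there.

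**Figure D1:**
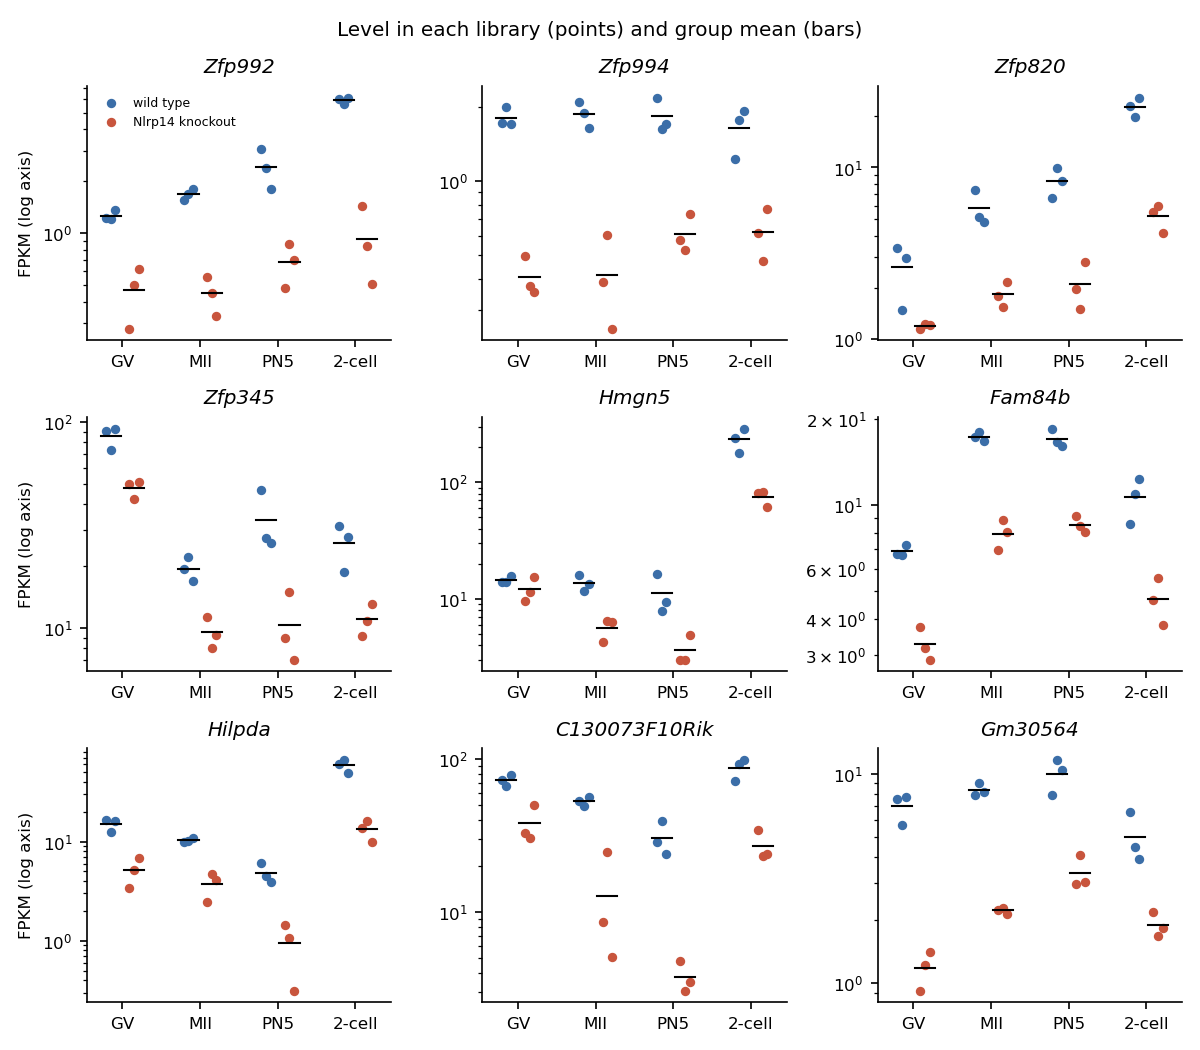
Level of each of the 9 genes in the 24 libraries, in FPKM on a log axis, by stage. Points are libraries (blue wild type, red Nlrp14 knockout) and bars are group means of 3 libraries. The red points lie below the blue points of the same stage in every panel, except for Hmgn5 at GV, where they overlap.

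Hmgn5 (ENSMUSG00000031245), at 109004534 to 109013404 on the - strand of the X chromosome, was the one gene whose groups overlapped at GV. The GV libraries read 13.9, 14.1 and 15.5 FPKM among wild-type and 9.50, 11.5 and 15.2 FPKM among knockout libraries, so that knockout replicate 3 lay within the wild-type range. At MII the values were 16.1, 11.7 and 13.3 FPKM against 4.27, 6.46 and 6.26 FPKM. PN5 zygotes gave 16.2, 7.93 and 9.33 FPKM against 2.99, 2.99 and 4.93 FPKM. From GV to MII the knockout mean was 2.13-fold lower without overlap, while the wild-type ranges of these stages overlapped. In 2-cell embryos Hmgn5 read 241, 180 and 290 FPKM among wild-type and 81.0, 83.5 and 61.0 FPKM among knockout libraries. The step from PN5 to 2-cell was 21.2-fold in wild type and 20.7-fold in the knockout, the largest step of any of the 9 genes in either genotype. The knockout was at 83.2% of wild type at GV and at 41.4, 32.6 and 31.7% at the later stages.

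Hilpda (ENSMUSG00000043421), at 29272488 to 29275446 on the + strand of chromosome 6, was lowest at PN5 and highest in 2-cell embryos in both genotypes. In GV oocytes it read 16.6, 12.4 and 16.2 FPKM among wild-type and 3.41, 5.11 and 6.87 FPKM among knockout libraries. MII oocytes read 9.90, 10.1 and 10.8 FPKM against 2.44, 4.74 and 4.09 FPKM. At PN5 the values were 6.005, 4.44 and 3.93 FPKM against 1.44, 1.07 and 0.313 FPKM. The PN5 knockout level was close to the filter of 1 FPKM, and the knockout replicate 3 value was below it. In 2-cell embryos the libraries read 60.1, 66.9 and 48.9 FPKM against 13.8, 16.2 and 9.94 FPKM. In stage order the knockout stood at 34.0, 36.6, 19.7 and 22.7% of the wild-type mean. The step from PN5 to 2-cell was 12.2-fold in wild type and 14.1-fold in the knockout.

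Fam84b (ENSMUSG00000072568), at 60818994 to 60853778 on the - strand of chromosome 15, kept nearly the same ratio between genotypes at all stages. The GV libraries read 6.77, 6.67 and 7.23 FPKM among wild-type and 3.75, 3.18 and 2.88 FPKM among knockout libraries. At MII the ranges were 16.8 to 18.0 FPKM and 6.94 to 8.85 FPKM, and at PN5 16.0 to 18.5 FPKM and 8.03 to 9.18 FPKM. In 2-cell embryos the values were 8.58, 11.0 and 12.3 FPKM against 4.68, 5.58 and 3.81 FPKM. The knockout was at 47.5, 45.9, 50.3 and 44.2% of wild type in stage order. The level was 2.51-fold higher at MII than at GV in wild type and 2.43-fold in the knockout, without overlap in either.

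C130073F10Rik (ENSMUSG00000046133), a single-transcript gene at 101890020 to 101893789 on the - strand of chromosome 4, showed the lowest knockout share of the set at PN5. In GV oocytes it read 72.7, 66.7 and 78.6 FPKM among wild-type and 32.7, 30.6 and 50.2 FPKM among knockout libraries. At MII the wild-type libraries read 53.4, 49.2 and 56.3 FPKM and the knockout libraries 8.65, 24.5 and 5.08 FPKM. PN5 zygotes read 28.8, 39.1 and 23.96 FPKM against 4.80, 3.05 and 3.48 FPKM. The knockout share of wild type was 52.0% at GV, 24.02% at MII and 12.3% at PN5, with knockout replicate 2 far above the other 2 at MII. In 2-cell embryos the values were 72.2, 92.0 and 99.0 FPKM against 34.1, 23.1 and 23.9 FPKM, a share of 30.8%. The step from PN5 to 2-cell was 2.86-fold in wild type and 7.14-fold in the knockout. The low PN5 values rest on 27 to 50 fragments per knockout library, against 234 to 328 in wild type.

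Gm30564 (ENSMUSG00000115965), a long intergenic noncoding RNA gene at 93956722 to 93964708 on the - strand of chromosome 15, had its lowest knockout share at GV. The GV libraries read 7.57, 5.67 and 7.76 FPKM among wild-type and 0.921, 1.23 and 1.42 FPKM among knockout libraries. MII oocytes gave 7.92, 9.05 and 8.20 FPKM against 2.24, 2.29 and 2.15 FPKM. In PN5 zygotes they were 7.94, 11.7 and 10.4 FPKM against 2.98, 4.10 and 3.03 FPKM. Both genotypes were higher at MII than at GV without overlap, by 1.20-fold in wild type and 1.88-fold in the knockout. The 2-cell libraries read 6.58, 4.50 and 3.93 FPKM against 2.19, 1.68 and 1.83 FPKM. The knockout was at 16.98, 26.6, 33.6 and 38.0% of wild type from GV to 2-cell, so that the share was higher at each later stage. The knockout GV values rest on 18 to 29 fragments per library and the wild-type ones on 135 to 195.

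In GV oocytes, a stage the rule does not name, all 9 genes had a negative difference, as had 60.2% of all tested genes. Of the 9, 1 passed the test. Of the 14 other genes called lower at the 3 later stages, Ndufa1, Gm10076, Gm10736, Gm11808, Gm10080 and Gm5526 had positive GV differences (0.29 to 0.52). Negative there were Nlrp14, Cyp2c53-ps, Gm11914, Uqcr11, AC140207.3, CT009755.2 and 6720489N17Rik, and Gm38100 was not tested. Gm30564 fell from 7.001 ± 1.15 to 1.19 ± 0.251 FPKM (SD, n = 3), a log2 difference of FPKM + 1 of -1.87 (SE 0.19, limma adjusted p = 0.0406). The test was limma on log2(FPKM + 1), adjusted over the 11635 genes tested, of which 0.0344% passed as lower. On this scale the change of weakly expressed genes comes out too small. The call was lost with a pseudocount of 0.1, with no filter, after median-of-ratios rescaling and with the replicate block. It was also lost without any one of the 6 GV libraries except knockout replicate 3. Over all alternatives the log2 difference of Gm30564 ran from -2.47 to -1.78 and its adjusted p from 9.1e-06 to 0.42 in limma.

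The other 8 genes did not pass at GV, with limma adjusted p between 0.092 and 0.65. Hilpda had the next largest difference on the FPKM + 1 scale, from 15.1 ± 2.31 to 5.13 ± 1.73 FPKM (log2 -1.42, SE 0.25, limma adjusted p = 0.105). Zfp994 differed by -0.99 (SE 0.14), C130073F10Rik by -0.96 (SE 0.21), Fam84b by -0.89 (SE 0.16) and Zfp345 by -0.82 (SE 0.16). By the knockout share of wild type the order was another: after Gm30564 came Zfp994 at 22.6% and then Hilpda at 34.0%. The smaller log2 differences were -0.68 for Zfp820 (SE 0.23), -0.63 for Zfp992 (SE 0.15) and -0.27 for Hmgn5 (SE 0.20). At an unadjusted p under 0.05 the limma fit had 8 of the 9 genes lower, all but Hmgn5, where 7.85% of all tested genes were. Of the 7 genes with a knockout library at 1 FPKM, which leaves out Zfp992 and Zfp994, 6 were lower by that measure.

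All knockout libraries lay below all wild-type libraries at GV for 8 of the 9 genes, against 14.8% of all tested genes. Zfp992 and Zfp994 passed the GV filter through the wild-type libraries alone. Of the 7 others, 6 did not overlap and 1 passed. The median log2 difference of the 9 genes was -0.89, beside -0.08 for all tested genes. Without knockout GV replicate 3, the library that stood apart, limma called 7 of the 9 genes lower, all but Hmgn5 and Zfp820, where 5.43% of all tested genes were called lower. Leaving out Zfp992 and Zfp994 as well, it called 5 of 7. Without knockout replicate 1 or 2 it called 0 of the 9 (0.0265 and 0.0263% of all tested genes).

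**Figure D2:**
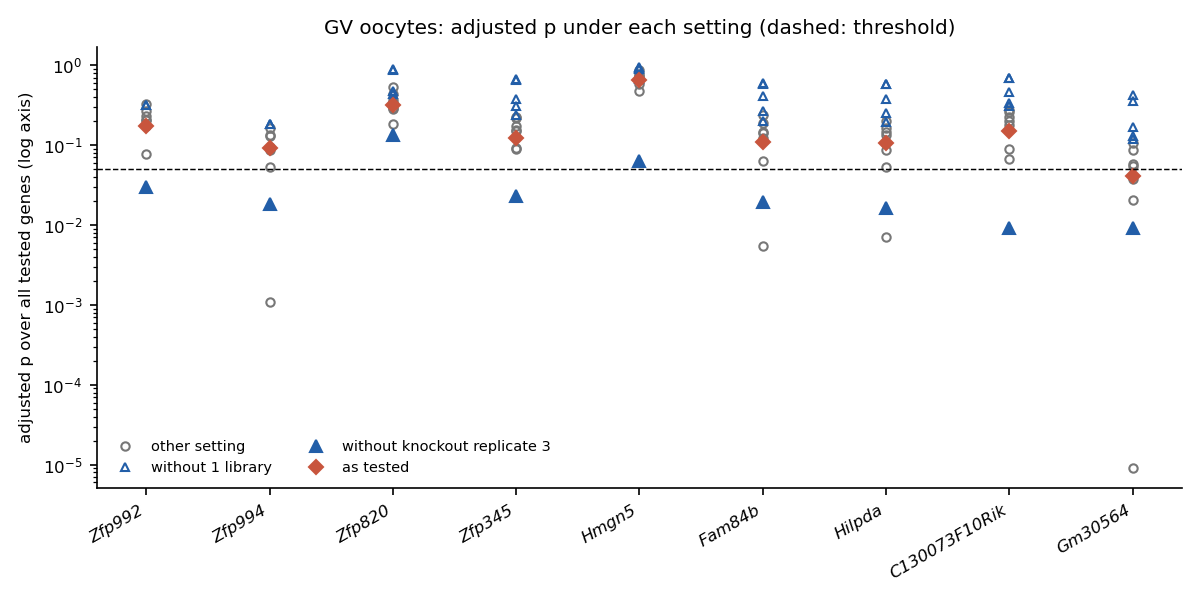
Adjusted p of each gene for knockout against wild type in GV oocytes under the test as reported (red), under other settings (grey) and without 1 library (blue), on a log axis, with a dashed line at 0.05. Gm30564 alone lies below the line as tested, and 7 of the 9 genes lie below it without knockout replicate 3 (filled triangles).

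At the 3 stages that chose the genes, the differences are given without a test. At MII the log2 differences ran from -2.24 for C130073F10Rik to -0.89 for Zfp992, with a median of -1.14, beside -0.18 for all 8739 tested genes. At PN5 they ran from -2.72 for C130073F10Rik to -0.81 for Zfp994, with a median of -1.36, beside 0.01 for all 9483 tested genes. In 2-cell embryos they ran from -2.07 for Hilpda to -0.70 for Zfp994, with a median of -1.63, beside -0.44 for all 13828 tested genes. These extremes hold on the FPKM + 1 scale: by the knockout share of wild type Zfp994 was lowest at MII (22.1%, next to 24.02% for C130073F10Rik) and Zfp992 in 2-cell embryos (15.7%, next to 22.7% for Hilpda), while C130073F10Rik was lowest at PN5 by both measures. The share of all tested genes called lower was 1.96% at MII, 5.53% at PN5 and 40.3% in 2-cell embryos, and all 9 genes were among them, as the choice required. All knockout libraries lay below all wild-type libraries for 26.1, 24 and 44.6% of all tested genes at the 3 stages, and for each of the 9. In 2-cell embryos lower values were thus common among all genes, and 11736 to 12037 genes reached 1 FPKM in the knockout libraries against 14128 to 14561 in wild type. Another scaling moved the median of all tested genes: at MII it was -0.04 with median-of-ratios factors and -0.37 on the TPM scale, and -0.19 and -0.56 in 2-cell embryos. At PN5 it was 0.05 and 0.23, and at GV -0.04 and -0.17. The differences of the 9 genes were negative under these scalings too.

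**Figure D3:**
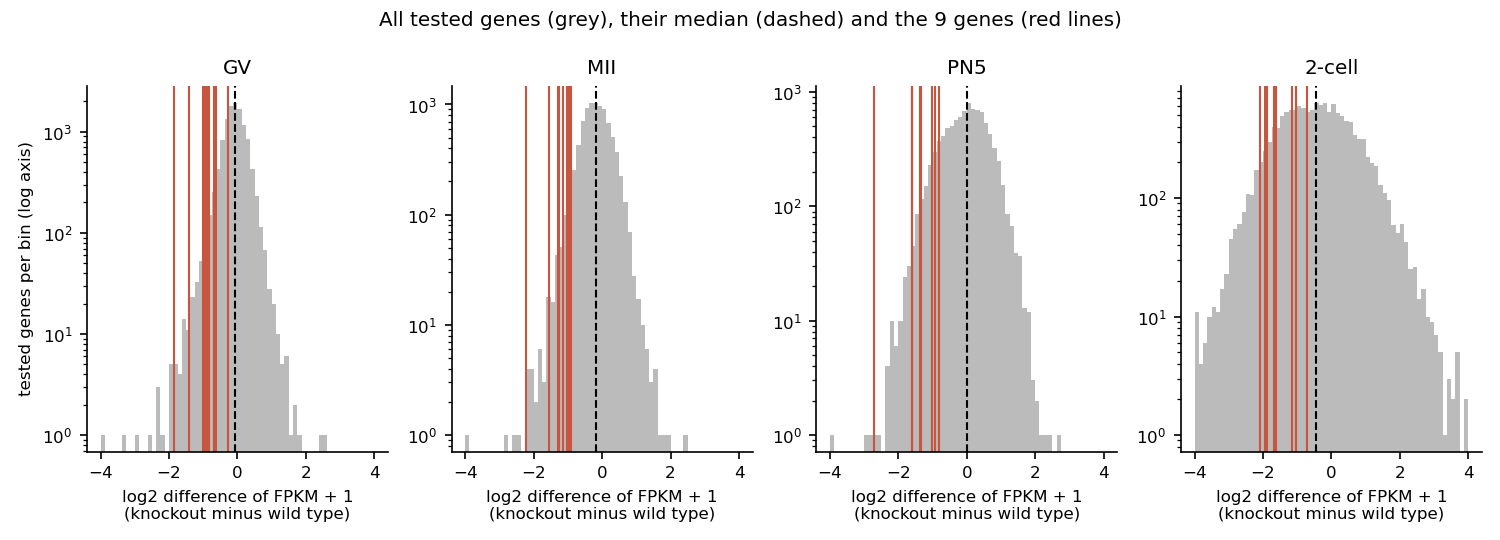
Distribution of the log2 difference (knockout minus wild type, FPKM + 1) of all tested genes at each stage, with the number of genes per bin on a log axis and values beyond -4 or 4 in the outermost bins. Red lines mark the 9 genes and dashed lines the median of all tested genes. The 9 genes lie left of that median at each stage, and at 2-cell within a broad left side of the distribution.

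Of 7823 genes tested at all 3 of these stages, 23 were called lower at each of them (0.294%), and 0 were called higher at each (limma). The 9 genes are among the 23. Their number moved with the processing: it was 6 with a pseudocount of 0.1, 1 with no filter, 6 after median-of-ratios rescaling, 3 as TPM, 1 with the replicate block, 33 with all 24 libraries in one fit and 1 to 33 without 1 library. The highest of these was without knockout MII replicate 1, and it was 1 without wild-type MII replicate 1, wild-type PN5 replicate 2 or knockout PN5 replicate 1 or 3. The 5 of the other 14 with the lowest summed difference were Nlrp14 itself, the complex I subunit gene Ndufa1, the noncoding RNA gene Gm10076 and the pseudogenes Cyp2c53-ps and Gm11914. Gm11914 shares sequence with Hmgn5, so the values of both may not be separate. Ndufa1 and Gm10076 differed at GV in the opposite direction from the 9 genes, by 0.42 and 0.29, without passing the test (limma adjusted p = 0.634 and 0.617). Of the 23 genes 14 are protein coding, 3 are lincRNA genes, 5 are processed pseudogenes and 1 is another pseudogene. Judged by the largest of the 3 adjusted p values, the genes nearest the threshold inside were Gm11808 at 0.0497 and Gm5526 and 6720489N17Rik at 0.0471, and the nearest outside were Gm8894 and Raet1e at 0.0566 (limma). The largest limma adjusted p of the 9 genes themselves ran from 0.0341 for Zfp820 and 0.0355 for Hilpda to 0.0462 for Zfp994 and 0.0469 for Hmgn5. As the same contrasts chose the genes, these values place them relative to the threshold and are no test of them.

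The genes differed in how their deficit ran over the stages. For Zfp992 the log2 difference was -0.63, -0.89, -1.02 and -1.87 from GV to 2-cell. That order rests on the FPKM + 1 scale: with a pseudocount of 0.1 the MII and PN5 values were -1.72 and -1.69. For Zfp820 it was -0.68, -1.25, -1.59 and -1.93. Hmgn5 had the same order as Zfp820, with -0.27, -1.14, -1.36 and -1.63. In Gm30564 the order was the reverse, with -1.87, -1.54, -1.33 and -1.03. Fam84b stayed between -1.04 and -0.89. C130073F10Rik and Zfp345 had their lowest values at PN5, -2.72 and -1.61. The SE of these differences lay between 0.14 and 0.44, and the difference between stages was not tested, since 3 of the 4 stages chose the genes.

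**Figure D4:**
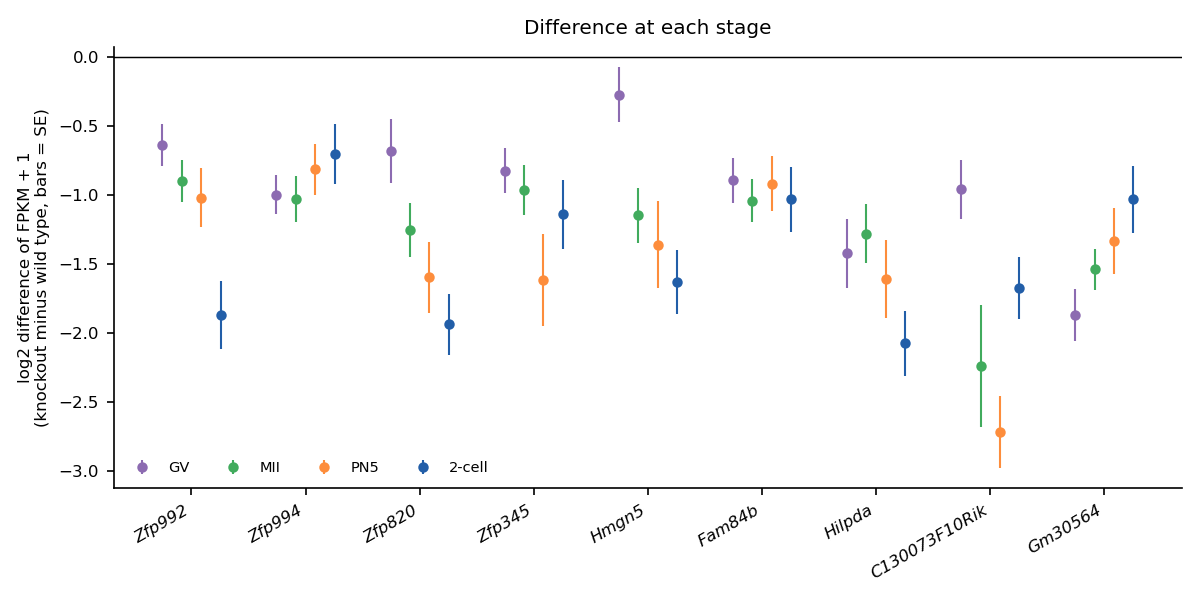
Log2 difference (knockout minus wild type, FPKM + 1) of the 9 genes at each stage, with bars for the standard error from limma. Zfp820 and Hmgn5 are lower at each later stage, Gm30564 runs the other way, and Fam84b stays near -1.

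The order of levels in wild type differed between stages. In wild-type GV oocytes Zfp345 (85.7 ± 10.7 FPKM) and C130073F10Rik (72.7 ± 5.95 FPKM) led and overlapped. They were followed by Hilpda and Hmgn5, which overlapped, then by Gm30564 and Fam84b, which overlapped, and last by Zfp820, Zfp994 and Zfp992. At MII C130073F10Rik (53.0 ± 3.57 FPKM) lay above Zfp345 (19.5 ± 2.64 FPKM) without overlap, and Fam84b held the third place. At PN5 Zfp345 and C130073F10Rik led again and overlapped, with Fam84b after them. In wild-type 2-cell embryos the order was Hmgn5 (237 ± 55.4 FPKM), C130073F10Rik (87.7 ± 13.9 FPKM), Hilpda (58.7 ± 9.08 FPKM), Zfp345 and Zfp820, which overlapped, Fam84b, Zfp992 and Gm30564, which overlapped, and Zfp994. In the knockout the first 6 places at the 2-cell stage were held by the same genes in the same order, from Hmgn5 at 75.2 ± 12.4 FPKM to Fam84b at 4.69 ± 0.888 FPKM. From PN5 to 2-cell, 5 of the 9 genes were higher without overlap in wild type (Zfp992, Zfp820, Hmgn5, Hilpda and C130073F10Rik). The same genes other than Zfp992 were higher in the knockout. Fam84b and Gm30564 were lower without overlap in both.

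Across the 24 libraries the 9 genes were not uniformly alike. Pearson r of log2(FPKM + 1) between pairs ran from -0.10 to 0.91 with a median of 0.54 over 36 pairs. The highest was between Zfp992 and Zfp820. Libraries of a stage and genotype share their group's level, so these values describe group patterns. Among all 16427 genes that reached 1 FPKM in at least 3 libraries, Hmgn5 was most like Gm11914 (r = 0.98), the histone gene Hist1h2ap (0.97) and Cstf2t (0.96). Gm11914 shares sequence with Hmgn5, as given below. The genes most like the other members were Pdzd8 for Zfp992 (0.92), Gm30340 for Zfp994 (0.88), the kinase gene Jak2 for Zfp820 (0.92), Nubpl for Zfp345 (0.92), Zfp330 for Fam84b (0.89), Prelid2 for Hilpda (0.92), Cops9 for C130073F10Rik (0.88) and the kinase gene Mapk10 for Gm30564 (0.93). The next in likeness were Zfp820 and Slc27a2 for Zfp992, Gm30564 and Gabra5 for Zfp994, Gm21411 and Gm8935 for Zfp820, and Shcbp1 and Prss38 for Zfp345. For the rest they were Gm7785 and Gm49409 for Fam84b, Gm10080 and Cnep1r1 for Hilpda, Gm11836 and Raet1e for C130073F10Rik, and Zfp994 and Fam84b for Gm30564.

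Some of these genes share sequence with others, which makes their values uncertain. Of all stretches of 75 bases in its exons, Zfp992 shares 34.5% with other annotated genes, chiefly its relatives Zfp991, Znf41-ps and Zfp993. Hmgn5 shares 15.8% with the processed pseudogene Gm11914 on chromosome 4, which read 153 ± 49.5 FPKM in wild-type and 49.2 ± 4.34 FPKM in knockout 2-cell embryos. Zfp345 shares 13.3%, chiefly with Gm14139 and Gm14124, and Zfp994 shares 9.75%, chiefly with CT030661.1. Fam84b shares 39.6% with 9930014A18Rik on the opposite strand, which averaged at most 0.378 FPKM in any group. Whether counting used strand is not given in the sources used here. Zfp820 shares 0.226%, and Hilpda, C130073F10Rik and Gm30564 share 0% at this length.

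Other zinc finger genes mostly had negative differences, except at PN5 on the TPM scale, and few passed the test before the 2-cell stage. Besides the 4 members, 361 protein-coding genes carry a Zfp name. At GV 122 of 147 tested were negative (83.0% against 60.2% of all tested genes), with a median of -0.29, and 0 passed in limma in the fit as tested. At an unadjusted p under 0.05, 34 of the 147 were lower (23.1% against 7.85%). With all 24 libraries in one fit 4 of 227 were called lower (1.76% against 0.737%) and 0 higher (against 0.262%), and without knockout replicate 3 it was 20 of 145 (13.8% against 5.43%). At MII 101 of 117 were negative (86.3% against 66.1%) with a median of -0.42. Of these 117, 2 passed as lower (1.71% against 1.96%), Zfp961 (22.5 ± 9.85 to 5.32 ± 0.745 FPKM) and Zfp69 (5.41 ± 1.49 to 1.39 ± 0.724 FPKM). At PN5 84 of 131 were negative (64.1% against 49%) with a median of -0.16, which was 0.03 as TPM. There 8 passed as lower, 6.11% against 5.53% of all tested genes, led by Zfp931, Zfp960 and Zfp85. Without 1 library the lower calls ran from 0 to 48 at MII and from 0 to 30 at PN5. The 48 (41.4% against 27.3% of all tested genes, with 0 higher against 8.86%) came without knockout MII replicate 1. The 30 of 120 (25% against 16.9%) came without wild-type PN5 replicate 3, with 14 higher (11.7% against 16%). In 2-cell embryos 106 of 194 passed as lower (54.6% against 40.3%) and 9 as higher (4.64% against 14%). There 146 were negative (75.3% against 65.5%), and the median was -0.80. After median-of-ratios rescaling 69 of the 194 were lower and 22 higher. Of all 13828 genes tested at that stage, 31.9% were lower and 2812 higher under that scaling. In 2-cell embryos Zfp42, the pluripotency marker REX1, fell from 21.5 ± 5.29 to 0.992 ± 0.303 FPKM, and Zfp948 and Zfp566 fell too. The tested Zfp genes have long exons, with a median of 4006 bases at GV against 2675 for all tested genes, and after removal of the length trend the medians of the Zfp genes were -0.25, -0.37, -0.30 and -0.76 from GV to 2-cell, beside -0.07, -0.16, -0.04 and -0.45 for all tested genes.

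In a list of genes linked to KRAB zinc finger repression, genes passed the test in 2-cell embryos, and the difference from the earlier stages was not tested. The list holds corepressors, the KRAB zinc finger genes Zfp57, Zfp445 and Zfp809, and the DNA methylation genes Dnmt1 and Uhrf1. In 2-cell embryos 10 of 21 passed as lower, Zfp445 among them, and 1 as higher, Uhrf1. Trim28, the common corepressor, fell from 10.3 ± 2.17 to 2.52 ± 0.278 FPKM (log2 -1.67, SE 0.23), and the HUSH complex genes Pphln1 (22.1 ± 3.01 to 6.28 ± 0.527 FPKM) and Mphosph8 (29.7 ± 2.60 to 9.44 ± 1.95 FPKM) fell as well. At GV, MII and PN5, 0 of 18, 15 and 15 passed in limma, with 1, 4 and 4 at an unadjusted p under 0.05 in either direction (5.56, 26.7 and 26.7%, against 11.8, 29.1 and 31.3% of all tested genes). The share in 2-cell embryos, 47.6%, lay near the 40.3% of all tested genes.

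Other genes of the families and pathways of Hmgn5, Hilpda and Fam84b rarely passed before the 2-cell stage. Of the other HMG chromatin protein genes, 7 to 9 were tested at each stage and 0 passed in limma. At an unadjusted p under 0.05 there were 0, 1, 1 and 0 from GV to 2-cell, of which 0 were lower. Before the 2-cell stage these were 0, 14.3 and 12.5%, against 11.8, 29.1 and 31.3% of all tested genes in either direction. In 2-cell embryos 0 of 9 passed and 0 had an unadjusted p under 0.05 in either direction. Of all genes tested there, 40.3% were called lower, 14% were called higher and 59.9% had an unadjusted p under 0.05. Of the lipid droplet and lipolysis genes, 0 of 7, 4 and 7 passed before the 2-cell stage (limma, with 1, 1 and 4 at an unadjusted p under 0.05). These were 14.3, 25 and 57.1%, against 11.8, 29.1 and 31.3% of all tested genes in either direction. The 1 at MII was lower, while at GV and PN5 0 were lower, and at PN5 0 of the 7 had a negative difference. In 2-cell embryos 1 of 8 was lower and 1 higher (12.5% each, against 40.3% and 14%). Cidea, which enlarges lipid droplets, fell there from 7.48 ± 3.22 to 1.79 ± 0.872 FPKM. Bscl2, the gene of seipin, rose from 15.4 ± 2.88 to 53.0 ± 4.43 FPKM. Of the hypoxia response genes, Bnip3, a mitophagy receptor, was the 1 of 15 to pass at PN5 (45.2 ± 7.50 to 18.8 ± 5.15 FPKM), a share of 6.67% near the 5.53% of all tested genes. In 2-cell embryos 14 of 23 passed as lower, 60.9% against 40.3%, among them Kdm3a (10.1 ± 2.04 to 2.42 ± 0.842 FPKM) and Ndrg1 (2.01 ± 0.492 to 0.134 ± 0.0844 FPKM). Ndrg1 passed the filter through wild type alone, and 13 of the other 22 were lower. The carbonic anhydrase gene Car9 rose from 3.29 ± 1.61 to 16.1 ± 3.64 FPKM. Of the LRAT domain genes, 1 or 2 were tested at each stage and 0 passed (limma, with 1, 1, 0 and 0 at an unadjusted p under 0.05). The 1 gene tested at GV and MII was Fam84a (100%, against 11.8 and 29.1% of all tested genes in either direction). It went from 5.06 ± 1.11 to 2.57 ± 1.11 FPKM at GV and from 4.01 ± 0.485 to 2.49 ± 0.536 FPKM at MII.

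The 9 genes lie on 6 chromosomes, none of them chromosome 7, which holds Nlrp14. Besides the pair on chromosome 17, Zfp992 and C130073F10Rik lie 44.6 Mb apart on chromosome 4, and Fam84b and Gm30564 lie 33.1 Mb apart on chromosome 15. On the 6 chromosomes the share of tested genes called lower at MII was 1.62 to 3.68% and at PN5 3.34 to 8.53%, against 1.96 and 5.53% of all tested genes. The upper ends were chromosome 17 at MII and the X chromosome at PN5. On chromosome 7 it was 1.66 and 4.71%.

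Within 500 kb of the 9 start sites 183 other genes are annotated, and few of those tested passed before the 2-cell stage. At GV 0 of 54 passed in limma as tested, and without knockout replicate 3 it was 12 of 54 as lower (22.2% against 5.43%). At MII 1 of 45 was lower (2.22%), the processed pseudogene CT009755.2, 58.9 kb from Zfp820 (25.9 ± 2.86 to 10.6 ± 3.35 FPKM). Without knockout MII replicate 1, 11 of 44 were lower (25% against 27.3%) and 1 higher, and with a pseudocount of 0.1, no filter or median-of-ratios rescaling 0 were. At PN5 6 of 50 were lower (12%, against 5.53% of all tested genes) and 0 higher (against 0.569%). They were CT009755.2, CT030661.1, CAAA01141682.1 and Zfp51 around Zfp820 and Zfp994, Gins1 near Zfp345 and Gm14868 near Hmgn5. The PN5 count of lower neighbours was 0 with no filter, after median-of-ratios rescaling, as TPM, with the replicate block, and without wild-type replicate 2 or any one of the knockout libraries. It was 1 with a pseudocount of 0.1. Without wild-type replicate 3 it was 12 of 48 (25% against 16.9%), with 3 higher (6.25% against 16%). In 2-cell embryos 35 of 69 were lower (50.7% against 40.3%) and 5 higher (7.25% against 14%). After median-of-ratios rescaling 22 of the 69 were lower, a share near the 31.9% of all tested genes under that scaling. There 12 were higher, as were 2812 of all 13828 tested genes.

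The neighbours that fell in 2-cell embryos included zinc finger and predicted genes of the same clusters. Near Zfp992 8 of 11 tested neighbours were lower, among them Zfp981, Zfp987, Gm13241 and Gm21411, and 0 were higher. Zfp981 varied widely between the knockout libraries (10.6 ± 4.16 to 3.51 ± 5.74 FPKM, log2 -2.15, SE 0.79). Around Zfp820, Zfp948, Zfp677, Zfp53, Zfp52 and Zfp760 were lower, while Zfp51 was higher (33.5 ± 6.52 to 78.2 ± 10.8 FPKM). Beside Zfp345, Cst7, 85.3 kb away, fell from 57.5 ± 4.12 to 3.01 ± 2.05 FPKM, and Apmap and Gins1 fell too. The zinc finger gene Zfp442, 33.6 kb from Zfp345, was higher (log2 difference 0.73). Near Hilpda, Rbm28, Tnpo3 and Calu were lower and the proton pump gene Atp6v1f was higher (21.2 ± 0.181 to 65.9 ± 6.77 FPKM). Near Gm30564 the one neighbour to pass was Prickle1 (32.8 ± 3.51 to 21.2 ± 3.14 FPKM), and near Fam84b it was A1bg, which was higher.

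**Figure D5:**
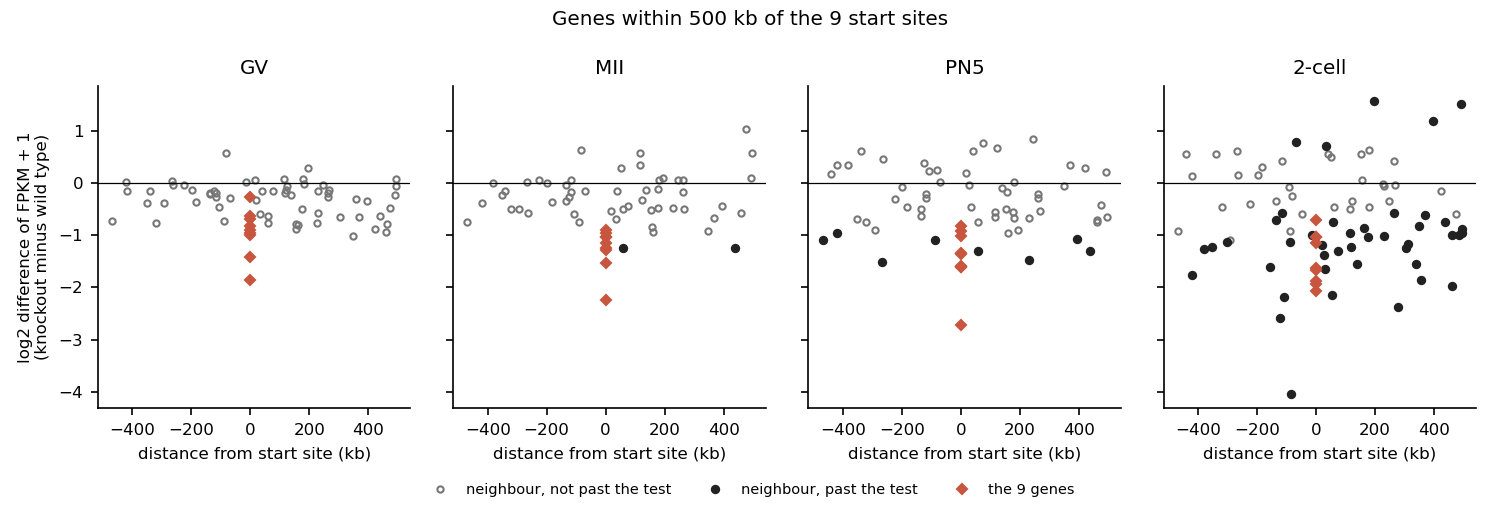
Log2 difference (knockout minus wild type, FPKM + 1) of tested genes within 500 kb of the 9 start sites, against distance in kb, at each stage. Filled points passed the test, open points did not, and red diamonds are the 9 genes. At GV no neighbour is filled, and at the 2-cell stage 35 are filled as lower and 5 as higher (a gene near both Zfp820 and Zfp994 is drawn at both distances).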

How the data were processed

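The authors deposited, for each library, FPKM per Ensembl gene, made with StringTie on GRCm38 per the submitters' processing notes. The aligner, annotation release and filters are not given in the sources used here. Per the labels' protocols, pools of 5 oocytes or embryos were amplified with SMART-Seq HT. Symbols and positions came from GENCODE M21 (GRCm38), which matched 55227 of 55487 identifiers, and promoters from RefSeq.

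Depth was read from 34257 single-transcript genes, whose low values (up to 30 fragments) were whole multiples of one step for 98.8 to 99.2% of values within 0.02. FPKM of genes with several transcripts does not keep whole fragments, so no count model was run. Each stage was fitted on its own in R 4.3.3 by limma 3.58.1 (data.table version 1.17.8) on log2(FPKM + 1), with trend and robust variance. Genes that reached 1 FPKM in 3 or more libraries were tested, with Benjamini-Hochberg adjustment over all of them at 0.05. The fit was tested on simulated data. Tables and plots used Python 3.11.15, pandas 2.3.3, numpy 2.4.6, matplotlib 3.10.9 and Biopython 1.88.

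The 9 genes, the gene lists and the neighbour window were chosen with earlier results of these data known. The text names the 9 genes, Nlrp14, the 3 genes most correlated with each and called neighbours within 500 kb, of those in 2-cell embryos only a part. For each gene list and stage, up to 3 called genes by smallest p are named. Of the marker lists only some called genes are named, and those of sperm and 2-cell embryos are not described. The text also names the 5 other genes lower at 3 stages with the lowest summed difference. Genes nearest the threshold, genes with shared sequence, the rest of the genes lower at 3 stages and further list members were named after their values were seen. Aldoa, with 2 gene models, and Dux, with 0, were left out of their lists. Alternatives were a pseudocount of 0.1, no filter, median-of-ratios rescaling, TPM, removal of the length trend, 1 fit of all 24 libraries, a replicate block and leaving out each library.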

Additional observations from a re-analysis of the deposited data

Results flagged for a closer look

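Zfp51, a zinc finger gene within 500 kb of Zfp820, moved in opposite directions at successive stages. Its log2 difference of FPKM + 1 (knockout minus wild type) was -1.08 in PN5 zygotes (SE 0.24, limma adjusted p = 0.0446) and 1.21 in 2-cell embryos (SE 0.21, limma adjusted p = 0.00197). All 3 knockout libraries lay below all wild-type libraries at PN5 and above them in 2-cell embryos. The PN5 call was lost with a pseudocount of 0.1, no filter, median-of-ratios rescaling, TPM, the replicate block, and without wild-type replicate 2 or any one of the knockout libraries, with limma adjusted p of 0.0553 to 0.185 there. The 2-cell call was kept in each of the 13 alternatives. The difference between the stages was not tested.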

How the results depend on the processing

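The difference of each of the 9 genes was negative at every stage in each of the 10 or 13 alternatives in which it was tested. The number of genes called was less stable. At GV 5 genes were called. That became 2 when unfiltered, 28 after removal of the length trend, 164 with all 24 libraries in one fit and 1 to 1026 without 1 library, the highest without knockout replicate 3. Of the 9 genes 1 was called at GV. The number was 0 with a pseudocount of 0.1, no filter or median-of-ratios rescaling, 4 with all 24 libraries in one fit and 0 to 7 without 1 library. At MII 199 genes were called, 69 with the lower pseudocount, 8 with no filter, 83 after median-of-ratios rescaling and 3 to 3083 without 1 library, the highest without knockout replicate 1. At PN5 the 578 called became 110, 3 and 77 under those settings, 7 as TPM, 2005 with all 24 libraries and 1 to 2967 without 1 library. The highest was without wild-type replicate 3, and it was 1 or 2 without wild-type replicate 2 or any one of the knockout libraries. In 2-cell embryos 7513 were called, and 4855 to 6606 without 1 library. Without 1 library, 0 to 9 of the 9 genes passed at MII, 0 or 7 at PN5 and 8 or 9 in 2-cell embryos. Since these stages chose the genes, such counts describe how the choice moves with the processing and are no test. At PN5 the number was 0 without wild-type replicate 2 or any one of the knockout libraries. With a pseudocount of 0.1 or after median-of-ratios rescaling 3 passed at MII and 3 at PN5. With no filter it was 1 at MII and 0 at PN5, and as TPM 9 and 1. Without 1 wild-type library Zfp992 and Zfp994 drop out of the filter at GV, MII and PN5, which leaves 7 to test. The cause of these shifts was not tested. Median-of-ratios rescaling moved the 2-cell calls from 5577 lower and 1936 higher to 4406 and 2812.

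Replicate numbers did not pair the libraries: deviations of same-numbered libraries correlated at -0.27 to 0.27. With the replicate block 2 genes were called at GV, 132 at MII, 1 at PN5 and 7011 in 2-cell embryos, and 0, 6, 0 and 9 of the 9 genes. Of the 12 number-by-stage pairs, 1 had its own number as best partner. Among those of the 9 genes with 1 transcript, depth limits Zfp992, Zfp994 and Gm30564 most, with as few as 12, 13 and 18 fragments in a knockout library. Fragments were not derived for Hilpda, Zfp820 and Fam84b, which have 2 transcripts each. Of these, Hilpda averaged only 0.942 ± 0.577 FPKM in knockout PN5 zygotes, so depth limits it there too.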
